A study of Mus musculus with 9 samples.

Results

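Gene counts from bulk RNA-seq of 6 libraries, of 9 in the series, describe tumours of B16-F10 cells, a melanoma line from the mouse. The members were the 3 libraries titled as hairpin 1 against Fbxo38, set against the 3 libraries titled as control hairpin, over all genes. Both groups were subcutaneous tumours in C57BL/6 mice, taken on day 16, with no further treatment in the labels. The cells labelled hairpin 1 carried a short hairpin RNA against Fbxo38, and the control cells, whose genotype label is WT, carried a control hairpin. The remaining 3 libraries, labelled hairpin 2, came from cells with another hairpin against Fbxo38 and were used for the shared estimate of spread and for a direct comparison. The genotype labels of replicates 2 and 3 of hairpin 1 name FBXO39 and FBXO40, while their titles name FBXO38. The sources used here give no hairpin sequence, number of clones or age of the mice. Whether replicates are separate animals is not in the labels, so each p-value reflects only the spread among these samples, which may be technical.

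FBXO38 is an F-box protein, the part of an SCF ubiquitin ligase that binds the substrate. A known substrate in T cells is PD-1, an inhibitory receptor encoded by Pdcd1. A tumour under the skin holds melanoma cells beside host fibroblasts, vessels, blood and leukocytes, and a hairpin in the injected cells is not carried by the host's cells. In bulk tissue, fewer cells of a type and less RNA per cell cannot be told apart.

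Fbxo38 transcripts were not detectably lower in the tumours labelled hairpin 1. Fbxo38 (ENSMUSG00000042211.7, minus strand of GRCm38 chr18:62504155-62548695, protein-coding, overlapped by no gene of GENCODE M21) stood at 35.1, 20.99 and 22.03 CPM in replicates 1, 2 and 3 labelled hairpin 1, against 21.7, 31.3 and 30.8 CPM in control replicates 1, 2 and 3. CPM scale each count to the library's size. Replicate 1 labelled hairpin 1 was the highest of the 6 libraries, and the groups overlapped. The means were 26.0 ± 7.87 CPM with hairpin 1 and 27.9 ± 5.41 CPM in control (SD, n = 3 each), from 312 to 593 raw counts per library with hairpin 1 and 363 to 517 in control. The fitted log2 fold change of hairpin 1 over control was -0.10 (SE 0.28, 95% interval -0.73 to 0.53; edgeR unadjusted p = 0.734, adjusted p = 0.9999; exact two-sided permutation p = 0.9). Without replicate 1 labelled hairpin 1 the log2 fold change was -0.39, with an edgeR adjusted p of 0.996. It was 0.03 without replicate 2 and 0.0052 without replicate 3. Because the targeted transcript did not differ detectably, the group is called by its label throughout, and no direction given for it shows what a loss of Fbxo38 does.

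The other F-box genes that the genotype labels name were low or overlapped between the groups. Fbxo42 stood at 135, 172 and 181 CPM with hairpin 1, against 209, 156 and 162 CPM in control (exact two-sided permutation p = 0.6). Fbxo41 stood at 0.474, 1.21 and 0.379 CPM with hairpin 1 and 0.477, 0.8495 and 0.535 CPM in control (exact two-sided permutation p = 1). Fbxo39 and Fbxo40, the names in 2 of the hairpin 1 genotype labels, summed to 6 and 7 raw counts over the 3 libraries labelled hairpin 1, and to 0 and 19 over the 3 control libraries. The ligase's shared parts overlapped too. Cul1, the scaffold, stood at 166, 155 and 149.8 CPM with hairpin 1 and 162, 176 and 192 CPM in control, and Skp1a, the adaptor, at 188, 204 and 213 CPM with hairpin 1 and 220.1, 173 and 189.7 CPM in control. Of 12 tested genes of the SCF core, 7 had a positive and 5 a negative log2 fold change, with a median of 0.01, the same as the median over all tested genes. None had values that separated the groups.

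**Figure D1:**
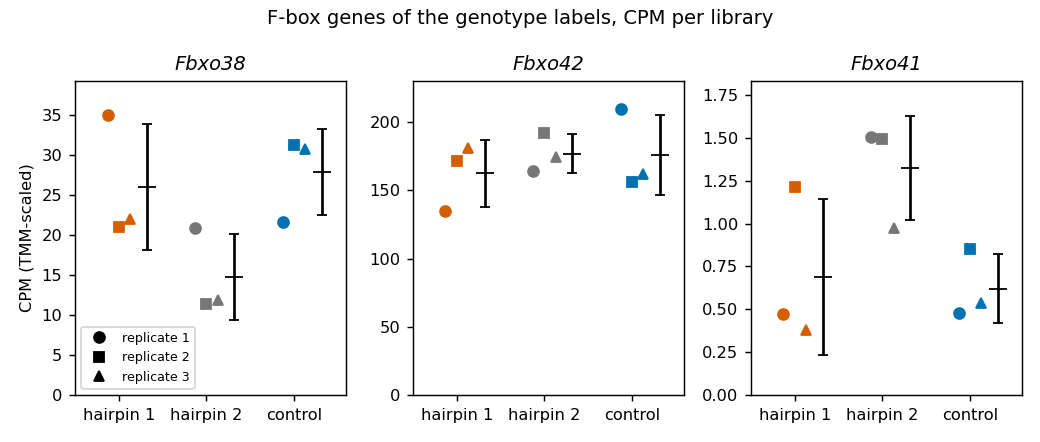
Fbxo38, Fbxo42 and Fbxo41 in CPM (vertical axes from 0, scaled by the TMM method) in each library labelled hairpin 1, hairpin 2 and control, with marker shapes for replicate numbers and bars for mean ± SD. For Fbxo38, replicate 1 labelled hairpin 1 lies at 35.1 CPM, above all 3 controls, and the other 2 lie at 20.99 and 22.03 CPM.

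The libraries held 15358943 to 17342554 counts with hairpin 1 and 15429762 to 16601180 in control, so 1 CPM stood for 14.9 to 16.9 counts. Spearman correlations between the 6 libraries ran from 0.967 to 0.991. Replicate 1 labelled hairpin 1 stood apart on the first principal component of the 6 libraries (43.5% of the variance), at 61.5, against -17.8 and -19.3 for the other 2 of its group and -30.2, 23.6 and -17.8 for the controls. Control replicate 2 was the nearest to it. On the second component (19.2%), the 3 libraries labelled hairpin 1 lay at 16.9, 12.04 and 25.7, and the 3 controls at 2.78, -30.7 and -26.8. Mitochondrial transcripts took 6.29%, 4.19% and 2.15% of counts with hairpin 1, and 2.12%, 4.47% and 3.21% in control. The 7 melanoma markers, among them Pmel, Tyrp1 and Sox10, summed to between 21560 and 25840 CPM with hairpin 1 and between 21380 and 26930 CPM in control, so the labelled tumour type was present in every library.

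No gene passed the test. Over 14193 tested genes, edgeR's quasi-likelihood test called 0% (0 genes) at a Benjamini-Hochberg adjusted p under 0.05, and DESeq2 and limma-voom called 0 as well. The edgeR adjusted p was 0.9999 for each gene. An unadjusted p under 0.05 was reached by 450 genes (3.17%), of which 262 were higher (1.85%) and 188 lower (1.32%) with hairpin 1. This is below the 5% of genes that the threshold passes when nothing differs. In 580 genes (4.09%) all 3 libraries labelled hairpin 1 lay above all 3 controls, and in 611 genes (4.3%) all 3 lay below. A positive log2 fold change was found in 7469 genes (52.6%) and a negative one in 6724 (47.4%). These shares are the background for each list below. The lists hold genes of a cell type, complex or pathway, and were chosen with earlier results of these data known. Members of a list vary together across libraries, so their counts are not independent, and no list was tested. Leaving out control replicate 3 brought the genes at an unadjusted p under 0.05 down to 206.

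**Figure D2:**
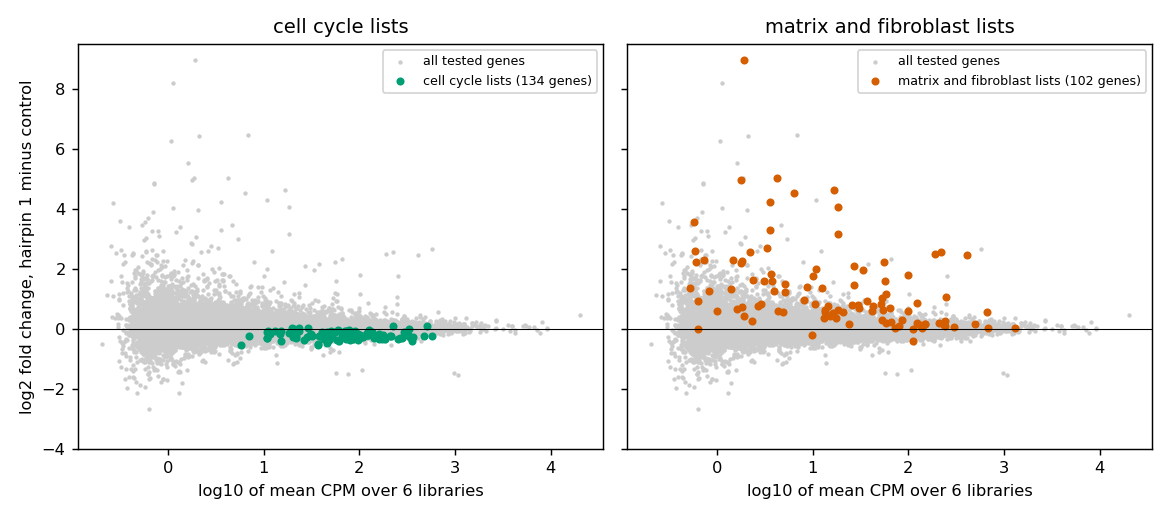
Fitted log2 fold change of hairpin 1 over control (vertical axis) against log10 of mean CPM over the 6 libraries (horizontal axis) for 14193 tested genes in grey, with 134 cell cycle genes in colour at left and 102 matrix and fibroblast genes in colour at right. The cell cycle genes lie in a narrow band below 0 with a median of -0.22, and the matrix genes spread upward with a median of 0.81. The highest coloured point is Cthrc1, which had no counts in the controls, so its fitted value has no fixed size.

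The 12 higher genes of smallest p, none past the adjusted threshold, included factors of cell identity, receptors and matrix enzymes. Snai1, a transcription factor that represses E-cadherin in the epithelial-to-mesenchymal transition, stood at 4.86, 2.62 and 2.53 CPM with hairpin 1, against 0.895, 0.915 and 0.476 CPM in control, with a log2 fold change of 2.12 (SE 0.44; edgeR unadjusted p = 0.000622). Id3, which holds helix-loop-helix factors off DNA, stood at 14.6, 8.41 and 8.902 CPM with hairpin 1, against 3.76, 4.31 and 3.69 CPM in control, with a log2 fold change of 1.44 (SE 0.34; edgeR unadjusted p = 0.00157). In both genes every library labelled hairpin 1 lay above every control. Loxl2, a lysyl oxidase that crosslinks collagen, stood at 71.5, 71.6 and 54.99 CPM with hairpin 1, against 40.1, 44.6 and 27.1 CPM in control (log2 fold change 0.83, SE 0.20, edgeR unadjusted p = 0.00202). Cxcr4, the receptor of the chemokine CXCL12, stood at 11.7, 8.48 and 9.66 CPM with hairpin 1, against 3.34, 6.08 and 3.51 CPM in control (log2 fold change 1.21, SE 0.32, edgeR unadjusted p = 0.00363). The pseudokinase receptor gene Ptk7, of planar cell polarity, had a log2 fold change of 1.63 (SE 0.41; edgeR unadjusted p = 0.00273), and Il1r1, the interleukin 1 receptor, one of 1.68 (SE 0.49; edgeR unadjusted p = 0.00649). Rcn3, a calcium-binding protein of the endoplasmic reticulum, stood at 31.1, 14.4 and 28.03 CPM with hairpin 1 and 10.4, 6.93 and 7.56 CPM in control. Slc16a3, the lactate exporter MCT4, stood at 512, 514 and 453 CPM with hairpin 1 and 394, 411 and 323 CPM in control (log2 fold change 0.39, SE 0.11, edgeR unadjusted p = 0.00553). The other 4 were Fam129a, the ribosomal protein gene Rps21, the endothelial receptor gene Tie1 and the processed pseudogene Gm12751, at log2 fold changes of 0.95, 0.53, 0.80 and 0.86. The groups did not overlap in any of the 12.

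Snai1 is transcribed from GRCm38 chr2:167538195-167542814 on the plus strand, and its promoter is shown because its product is known to bind the E box CACCTG, also in its own promoter. The stretch is chr2:167537945-167538244 on the plus strand, from RefSeq (GRCm38.p6), 250 bases before to 50 after the start, with the E box in capitals 126 bases before the start.
Snai1: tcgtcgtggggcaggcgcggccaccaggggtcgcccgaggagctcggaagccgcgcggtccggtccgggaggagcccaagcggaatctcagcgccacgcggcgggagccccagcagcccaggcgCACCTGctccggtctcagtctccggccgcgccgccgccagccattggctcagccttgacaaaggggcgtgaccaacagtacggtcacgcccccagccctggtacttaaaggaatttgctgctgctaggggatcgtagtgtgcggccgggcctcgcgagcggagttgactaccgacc
The letters CACCTG, read on both strands, stood in promoters of the same length for 22.6% of 27025 genes, so a match describes this promoter and marks no bound site.

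The 12 lower genes of smallest p were led by Rpl7a and by genes of DNA replication and mitosis. Rpl7a, a protein of the large ribosomal subunit whose exons overlap Gm22879 and Gm24134, stood at 177, 167 and 186 CPM with hairpin 1, against 232, 255 and 283 CPM in control (log2 fold change -0.54, SE 0.11, edgeR unadjusted p = 0.000404). Cdc6, which loads the replicative helicase at origins, stood at 37.8, 35.4 and 43.2 CPM with hairpin 1, against 55.6, 51.8 and 54.7 CPM in control (log2 fold change -0.48, SE 0.11, edgeR unadjusted p = 0.00184). Aurka, the mitotic kinase Aurora A, stood at 73.3, 68.9 and 68.3 CPM with hairpin 1, against 89.5, 84.95 and 95.7 CPM in control (log2 fold change -0.36, SE 0.09, edgeR unadjusted p = 0.00295). Every library labelled hairpin 1 lay below every control in these 3 genes. Ccna2, cyclin A2, stood at 151, 151 and 149.9 CPM with hairpin 1, against 181, 184 and 208 CPM in control (log2 fold change -0.34, SE 0.09, edgeR unadjusted p = 0.00348), and its exons overlap Exosc9. Chtf18, part of an alternative loader of the sliding clamp, stood at 30.4, 32.4 and 34.7 CPM with hairpin 1 and 39.4, 43.8 and 47.2 CPM in control, and its exons overlap Gng13. Suv39h2, a histone H3 lysine 9 methyltransferase, had a log2 fold change of -0.64 (SE 0.17; edgeR unadjusted p = 0.00312), and Zranb3, a remodeller of stalled replication forks, one of -0.59 (SE 0.15; edgeR unadjusted p = 0.00327). Spag5, a spindle protein also called astrin, stood at 47.01, 51.6 and 52.2 CPM with hairpin 1 and 62.4, 62.9 and 70.2 CPM in control. Kpna2, an importin that carries proteins into the nucleus, stood at 274, 267 and 297 CPM with hairpin 1 and 333, 330.5 and 377 CPM in control. The kinase gene Dyrk3, the glycosidase gene Engase and the tubulin-complex gene Tedc2 had log2 fold changes of -0.88, -0.60 and -0.46. None of the 12 had overlapping groups.

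**Figure D3:**
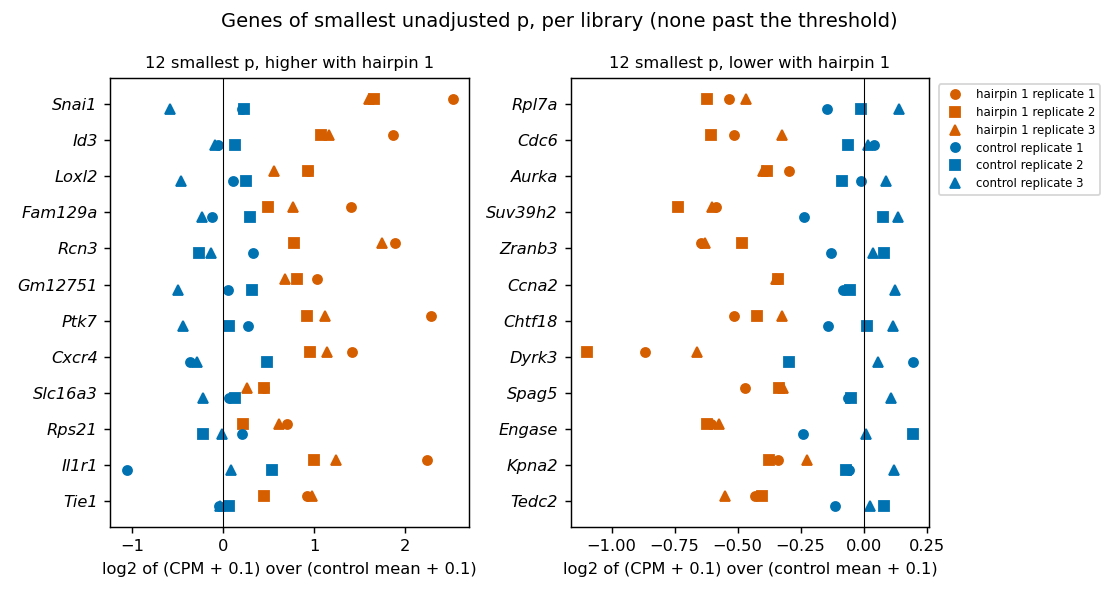
The 12 higher and 12 lower genes of smallest unadjusted p, as log2 of (CPM + 0.1) over (control mean + 0.1) on the horizontal axis, with 1 point per library. For Snai1 the 3 libraries labelled hairpin 1 (4.86, 2.62 and 2.53 CPM) lie right of the 3 controls (0.895, 0.915 and 0.476 CPM); no gene shown passed the adjusted threshold.

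Cell cycle genes had lower values in the tumours labelled hairpin 1, by a small amount in each library and with no gene past the adjusted threshold. Of 134 tested genes in 6 lists of replication, mitosis, chromatin assembly and repair, 128 had a log2 fold change below 0 (median -0.22), against 47.4% negative genes and a median of 0.01 over all tested genes. All 3 libraries labelled hairpin 1 lay below all 3 controls in 60 of the 134 (44.8%, against 4.3% of all tested genes) and above them in 0. An unadjusted p under 0.05 was reached by 36 lower and 0 higher members, against 1.32% and 1.85% of all tested genes. The 6 positive members were Cdk2, Brca1, Rpa3, Asf1a, Gins2 and Pttg1, at most at 0.11, and the exons of Cdk2 overlap those of the melanosome gene Pmel; the 6 are named here after their values were seen. The median lay between -0.25 and -0.18 with any of the 6 libraries left out, and the number of members entirely below the controls then lay between 63 and 80, against 6.44% to 10.2% of all tested genes. Under the other scalings the median ran from -0.24 to -0.21. The lower members at an unadjusted p under 0.05 numbered 13 without control replicate 3, against 68 of 14610 tested genes. They numbered 23 without replicate 1 labelled hairpin 1, against 270 of 14477 tested genes.

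Replication licensing genes load and start the helicase before DNA synthesis. Of 26 tested, 24 were negative, 10 lay entirely below the controls, and the median was -0.18. Mcm5, a helicase subunit, stood at 224, 275 and 254 CPM with hairpin 1, against 316, 292 and 315 CPM in control (log2 fold change -0.29, SE 0.10, edgeR unadjusted p = 0.0123). Mcm2, another subunit, stood at 455, 553 and 559 CPM with hairpin 1, against 646, 623 and 601 CPM in control. E2f8, a repressor among the E2F factors, stood at 21.2, 32.7 and 36.6 CPM with hairpin 1, against 44.9, 43.5 and 41.2 CPM in control (log2 fold change -0.52, SE 0.18, edgeR unadjusted p = 0.0144). The groups were apart in all 3 genes. Among 26 genes of DNA synthesis and nucleotide supply, 25 were negative and 12 lay entirely below the controls, with a median of -0.19. Rrm2, the regulated subunit of ribonucleotide reductase, stood at 226, 229 and 226 CPM with hairpin 1, against 260.1, 286 and 311 CPM in control (log2 fold change -0.33, SE 0.10, edgeR unadjusted p = 0.00607). Tk1, thymidine kinase, stood at 132, 147 and 147 CPM with hairpin 1, against 160.5, 174 and 201 CPM in control (log2 fold change -0.33, SE 0.12, edgeR unadjusted p = 0.0195), with exons that overlap Afmid. Rrm1, the large subunit of the reductase, stood at 279, 368 and 327 CPM with hairpin 1 and 409.9, 379 and 401 CPM in control. Top2a, topoisomerase II, stood at 373, 444 and 474 CPM with hairpin 1 and 498, 501 and 525 CPM in control.

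Genes that drive and build mitosis stood lower by about the same size. Of 22 mitosis regulators, 21 were negative and 14 lay entirely below the controls, with a median of -0.22. Foxm1, the transcription factor of many G2 and M phase genes, stood at 160.2, 169 and 167 CPM with hairpin 1, against 195, 207 and 223 CPM in control (log2 fold change -0.33, SE 0.10, edgeR unadjusted p = 0.00687). Ccnb1, cyclin B1, stood at 143, 158 and 156 CPM with hairpin 1, against 186, 180.2 and 205 CPM in control (log2 fold change -0.32, SE 0.10, edgeR unadjusted p = 0.0072). All 23 spindle and kinetochore genes were negative, 13 lay entirely below the controls, and the median was -0.24. Kif2c, a kinesin that takes microtubules apart at kinetochores, stood at 42.1, 40.6 and 43.6 CPM with hairpin 1, against 54.2, 48.7 and 56.3 CPM in control (log2 fold change -0.33, SE 0.10, edgeR unadjusted p = 0.00802). Tpx2, which activates Aurora A on the spindle, stood at 140.1, 149.6 and 140.0 CPM with hairpin 1, against 166, 169 and 177 CPM in control. Kif20a and Prc1, of the central spindle, had log2 fold changes of -0.36 and -0.32.

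Chromatin and repair genes of dividing cells also had lower values. Of 17 genes of chromatin assembly and condensin, 16 were negative and 7 lay entirely below the controls, with a median of -0.22. Uhrf1, which guides DNA methylation to new strands, stood at 271, 313 and 331 CPM with hairpin 1, against 409, 378 and 430.1 CPM in control (log2 fold change -0.41, SE 0.13, edgeR unadjusted p = 0.00943). Its partner Dnmt1, the maintenance methyltransferase, stood at 247, 359 and 336 CPM with hairpin 1 and 429, 339 and 387 CPM in control, and overlapped. Of 20 DNA repair genes, 19 were negative and 4 lay entirely below the controls, with a median of -0.23. Brca1 overlapped widely, at 191, 291 and 210.5 CPM with hairpin 1 and 252, 251.2 and 146 CPM in control. Ccnd1, cyclin D1, from the MAP kinase output list, stood at 149.9, 162 and 154 CPM with hairpin 1, against 181, 186 and 233 CPM in control (log2 fold change -0.36, SE 0.12, edgeR unadjusted p = 0.0139). Cell cycle inhibitors and p53 targets were mixed: 7 of 17 were positive, the median was -0.05, and ran from -0.15 to 0.02 with a library left out. Of them, Cdkn1a, the inhibitor p21, stood at 213, 131 and 162 CPM with hairpin 1 and 124, 206 and 168 CPM in control.

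Promoters of 4 of these genes are shown. Among the members with a usable promoter sequence, they had the smallest p in their lists while holding a motif of the factors known for these phases. Not every member had such a sequence, so a gene passed over, such as Rrm2 or Tk1, is not shown to lack a motif. The CHR element TTTGAA is read by the DREAM and MuvB complexes at G2 and M phase genes, and the E2F core by E2F factors at the start of S phase. The E2F core was searched as TTCCCGC, with TTCGCGC as its other form. The letters of these elements, the CCAAT box included, do not contain one another. Sequences are from RefSeq (GRCm38.p6), 250 bases before to 50 after the RefSeq start, from which positions are counted, and the motif is in capitals. GENCODE M21 starts some of these genes elsewhere: it has Kif2c at chr4:117159639-117182639 and Cdc6 at chr11:98907801-98923940, so the windows of both lie inside the gene as annotated there, and Aurka at chr2:172356190-172370535. Aurka lies at chr2:172370521-172370820 on the minus strand, with the CHR element 32 bases after the start. Kif2c lies at chr4:117178723-117179022 on the minus strand, with a CHR element on the other strand 103 bases before the start. Cdc6 lies at chr11:98907901-98908200 on the plus strand, with an E2F core on the other strand 138 bases before the start. Rrm1 lies at chr7:102441445-102441744 on the plus strand, with an E2F core 67 bases before the start.
Aurka: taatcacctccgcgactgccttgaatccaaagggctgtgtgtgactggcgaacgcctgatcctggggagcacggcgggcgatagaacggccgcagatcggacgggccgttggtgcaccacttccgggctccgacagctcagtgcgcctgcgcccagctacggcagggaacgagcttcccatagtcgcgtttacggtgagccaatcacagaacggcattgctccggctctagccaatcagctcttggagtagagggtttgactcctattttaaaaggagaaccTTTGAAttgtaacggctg
Kif2c: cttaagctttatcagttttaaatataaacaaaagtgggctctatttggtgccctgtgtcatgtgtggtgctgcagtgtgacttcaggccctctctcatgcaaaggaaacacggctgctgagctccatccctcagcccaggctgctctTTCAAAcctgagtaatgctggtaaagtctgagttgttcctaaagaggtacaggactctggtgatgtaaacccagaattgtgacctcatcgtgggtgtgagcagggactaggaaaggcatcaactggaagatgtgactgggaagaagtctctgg
Cdc6: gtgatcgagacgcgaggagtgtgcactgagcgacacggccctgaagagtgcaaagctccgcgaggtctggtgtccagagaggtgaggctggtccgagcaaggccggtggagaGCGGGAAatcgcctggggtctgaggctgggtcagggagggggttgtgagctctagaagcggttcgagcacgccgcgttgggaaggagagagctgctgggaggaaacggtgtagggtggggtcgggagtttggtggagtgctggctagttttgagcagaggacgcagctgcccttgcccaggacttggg
Rrm1: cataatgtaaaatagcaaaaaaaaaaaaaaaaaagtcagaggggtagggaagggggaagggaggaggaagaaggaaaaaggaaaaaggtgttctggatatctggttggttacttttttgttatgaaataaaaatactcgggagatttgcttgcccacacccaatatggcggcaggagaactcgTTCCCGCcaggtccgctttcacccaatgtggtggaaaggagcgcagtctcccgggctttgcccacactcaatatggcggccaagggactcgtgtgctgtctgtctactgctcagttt
The counts and shares of promoters given next are of genes with a promoter sequence, 27025 in all. Searched on both strands, the CHR element stood in 9 of 16 mitosis regulator promoters (56.2%), in 15 of 20 spindle promoters (75%) and in 20.2% of all promoters. The E2F core, also searched on both strands, stood in 12 of 21 licensing promoters (57.1%), in 9 of 22 DNA synthesis promoters (40.9%) and in 6.86% of all promoters. The CHR element also stood in 8 of 21 licensing promoters (38.1%) and 3 of 22 DNA synthesis promoters (13.6%), and the E2F core in 1 of 16 mitosis (6.25%) and 3 of 20 spindle promoters (15%). The CCAAT box, searched as CCAAT on both strands, stood in 12 of 16 mitosis (75%), 14 of 20 spindle (70%), 15 of 21 licensing (71.4%) and 12 of 22 DNA synthesis promoters (54.5%), against 41.1% of all promoters. These matches describe letters in a window and say nothing of binding in these tumours.

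Matrix and fibroblast genes had higher fitted values in the tumours labelled hairpin 1, and no gene passed the adjusted threshold. The rise was largest in replicate 1 and small or absent in replicate 2 in most of the lists. As a median log2 ratio to the control mean, replicate 2 lay at -0.02 for collagens and 0.01 for fibroblast identity. Control replicate 2 lay at 0.42 and 0.59. Only for elastic fibres did replicate 2 labelled hairpin 1 (0.29) lie above control replicate 2 (0.21). Of 102 tested genes in 6 lists (fibrillar collagens, collagen crosslinking, elastic fibres, matricellular proteins, matrix proteases and fibroblast identity), 100 had a positive log2 fold change, against 52.6% of all tested genes, and the median was 0.81. The basement membrane list, described with the vessels, is not among the 6. All 3 libraries labelled hairpin 1 lay above all 3 controls in 19 of the 102 (18.6%, against 4.09% of all tested genes) and below them in 0. An unadjusted p under 0.05 was reached by 24 higher and 0 lower members, against 1.85% and 1.32% of all tested genes. Without replicate 1 labelled hairpin 1 the median was 0.37, with 82 of 102 positive. Of the 102, 26 (25.5%) then lay entirely above the controls, against 10.1% of all tested genes. At an unadjusted p under 0.05, 9 members were then higher, against 247 of 14477 tested genes. Without control replicate 2 the median was 1.22. The higher members at an unadjusted p under 0.05 numbered 9, 16 and 8 without control replicates 1, 2 and 3, where 310, 250 and 138 of all tested genes were higher at that level, and 38 without replicate 2 labelled hairpin 1, where 347 were. All 3 libraries labelled hairpin 1 lay above the 2 remaining controls in 48 members without control replicate 2, against 9.23% of all tested genes, and the 2 remaining lay above all 3 controls in 50 without replicate 2 labelled hairpin 1, against 8.73% of all tested genes. The 7 fibroblast markers, among them Col1a1, Dcn and Pdgfra, summed to 3276, 264.6 and 758.7 CPM with hairpin 1, and to 209.9, 415.7 and 177.2 CPM in control. Their part in the matrix result was not tested.

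Fibrillar and type VI collagens were positive in 13 of 13, with a median of 1.58, and of 0.80 without replicate 1 labelled hairpin 1. Col1a1, of type I collagen, stood at 1602, 93.6 and 362 CPM with hairpin 1, against 95.6, 207 and 72.9 CPM in control (log2 fold change 2.45, SE 1.11, edgeR unadjusted p = 0.0613). Col3a1, of type III collagen, stood at 734, 80.1 and 161 CPM with hairpin 1, against 47.7, 80.3 and 44.5 CPM in control (log2 fold change 2.5, SE 0.96, edgeR unadjusted p = 0.0347). Replicates 1 and 3 labelled hairpin 1 lay above all controls in both genes, while replicate 2 lay below control replicate 2. Only Col6a1, Col6a2 and Col14a1 of the 13, chosen here after their values were seen, had all 3 libraries labelled hairpin 1 above the controls. Collagen processing and crosslinking genes were positive in 21 of 21 but with a median of 0.25, and in 15 of 21 with a median of 0.14 without replicate 1 labelled hairpin 1. Lox, the founding lysyl oxidase, stood at 87.7, 2.42 and 5.75 CPM with hairpin 1, against 0.418, 3.14 and 0.357 CPM in control, and overlapped. Fkbp10, a prolyl isomerase for collagen, stood at 47.1, 55.4 and 59.5 CPM with hairpin 1, against 46.7, 28.4 and 21.00 CPM in control (log2 fold change 0.75, SE 0.26, edgeR unadjusted p = 0.0182), with exons that overlap Nt5c3b. Serpinh1, the collagen chaperone, stood at 1257, 1295 and 1422 CPM with hairpin 1 and 1321, 1377 and 1179 CPM in control.

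Elastic fibre genes were positive in 14 of 14, with a median of 1.54, and of 0.85 without replicate 1 labelled hairpin 1. Eln, elastin, stood at 5.03, 2.29 and 3.98 CPM with hairpin 1, against 0.597, 0.392 and 0.892 CPM in control (log2 fold change 2.57, SE 0.85, edgeR unadjusted p = 0.0144), and Mfap2, a microfibril protein, at 6.57, 1.82 and 2.46 CPM with hairpin 1, against 1.43, 1.11 and 0.952 CPM in control (log2 fold change 1.63, SE 0.60, edgeR unadjusted p = 0.0208). Both separated the groups. Fbln5, which tethers elastin to cells, did not, and stood at 464, 852 and 745 CPM with hairpin 1 and 695, 653 and 668 CPM in control. The most abundant members, Fbln5, Fbln1 and Emilin1, all overlapped, at log2 fold changes of 0.03, 0.05 and 0.19. The whole list summed to 1394, 1715 and 1511 CPM with hairpin 1 and 1379, 1364 and 1374 CPM in control. Among small proteoglycans and matricellular proteins 18 of 19 were positive, with a median of 1.58, and of 0.50 without replicate 1 labelled hairpin 1. Cthrc1, a secreted protein of activated fibroblasts, stood at 10.2, 0.135 and 1.14 CPM with hairpin 1 and had no counts in the 3 controls, so no fold is given. Aspn, asporin, stood at 10.8, 2.09 and 4.29 CPM with hairpin 1, against 1.07, 1.699 and 2.08 CPM in control (log2 fold change 1.82, SE 0.63, edgeR unadjusted p = 0.0171), with exons that overlap Cenpp. Thbs1, thrombospondin 1, overlapped, at 359.7, 47.3 and 73.8 CPM with hairpin 1 and 53.9, 148 and 63.95 CPM in control.

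**Figure D4:**
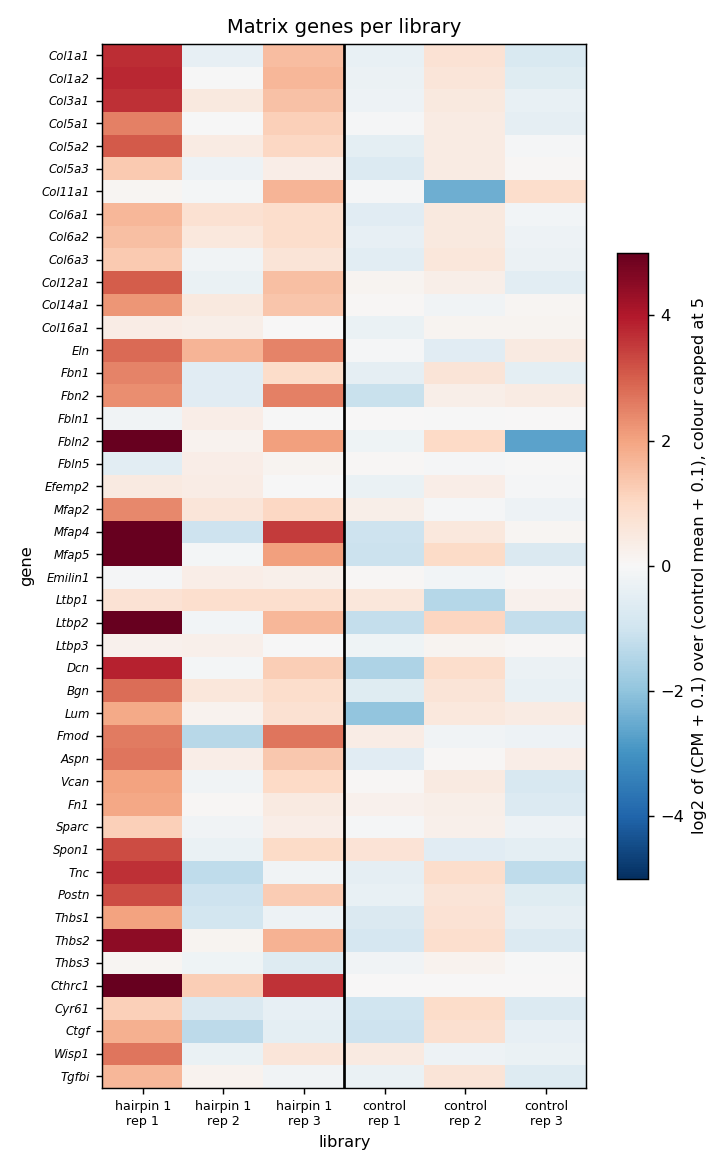
Collagen, elastic fibre and matricellular genes (down the page) in the 3 libraries labelled hairpin 1 and the 3 control libraries (across), coloured by log2 of (CPM + 0.1) over (control mean + 0.1), capped at 5 in either direction. Replicate 1 labelled hairpin 1 lies above the control mean in most genes (Col1a1 at 1602 CPM), replicate 3 by less (362 CPM), and replicate 2 lies near the controls (93.6 CPM). The medians of replicate 1 are 2.22, 2.37 and 2.59 for the collagen, elastic fibre and matricellular lists, short of the cap.

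Matrix proteases and their inhibitors had 21 of 22 members positive, with 6 entirely above the controls, a median of 0.59, and one of 0.23 without replicate 1 labelled hairpin 1. Mmp2, gelatinase A, stood at 28.1, 12.8 and 13.1 CPM with hairpin 1, against 8.59, 6.01 and 6.54 CPM in control (log2 fold change 1.35, SE 0.41, edgeR unadjusted p = 0.00894). Ctsk, the collagen-cutting cathepsin K, stood at 8.11, 5.72 and 7.51 CPM with hairpin 1, against 4.24, 2.88 and 2.02 CPM in control (log2 fold change 1.22, SE 0.38, edgeR unadjusted p = 0.00938). Fap, the serine protease that marks activated fibroblasts, stood at 1.54, 0.605 and 0.821 CPM with hairpin 1, against 0.179, 0.196 and 0.238 CPM in control (log2 fold change 2.24, SE 0.71, edgeR unadjusted p = 0.0102). In these 3 genes each library labelled hairpin 1 lay above each control. Adamts1, the negative member, stood at 131, 94.7 and 60.5 CPM with hairpin 1 and 73.1, 200.1 and 105 CPM in control. Fibroblast identity genes were positive in 15 of 15, with a median of 1.26, of 0.50 without replicate 1 labelled hairpin 1, of 0.72 without control replicate 1 or 3, and of 2.08 without control replicate 2. Pdgfra, a growth factor receptor of fibroblasts, stood at 6.098, 1.21 and 1.705 CPM with hairpin 1, against 0.656, 0.8495 and 0.357 CPM in control (log2 fold change 2.27, SE 0.84, edgeR unadjusted p = 0.0227). Cd34, a sialomucin of fibroblasts and vessels, stood at 17.2, 21.1 and 19.7 CPM with hairpin 1, against 15.4, 10.3 and 14.04 CPM in control (log2 fold change 0.54, SE 0.21, edgeR unadjusted p = 0.026), and was not highest in replicate 1.

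The 6 higher genes of largest change at an unadjusted p under 0.05 with separate groups were highest in replicate 1 labelled hairpin 1. Beside Cthrc1 they were Lrrc15, a membrane protein of fibroblasts in tumours, at 37.5, 0.404 and 2.59 CPM with hairpin 1 and 0, 0.327 and 0.119 CPM in control, and Ccbe1, of lymphatic growth, at 11.5, 0.336 and 0.758 CPM with hairpin 1 and 0.0597, 0.0653 and 0 CPM in control. Fndc1, Cpxm1 and Cyp1b1 stood at 8.58, 9.12 and 7.70 CPM in replicate 1 and at most at 0.673, 1.51 and 2.71 CPM in replicates 2 and 3. The control values of these 3 reached at most 0.131, 0.131 and 0.476 CPM. On the lower side the 6 of largest change were Gm14410, B3gnt2, Ppp1r14c and the processed pseudogenes Gm8319, Gm18584 and Gm7931. B3gnt2, a glycan-extending enzyme, stood at 1.24, 1.88 and 1.45 CPM with hairpin 1, against 2.92, 5.03 and 1.96 CPM in control, and its exons overlap 3 other genes. Counts of pseudogenes can be shared with their parent genes.

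Signals that act on stroma had a few members above the controls. Among 15 genes of the BMP pathway 12 were positive, with a median of 0.30, and 4 lay entirely above the controls. That median was 0.17 without replicate 1 labelled hairpin 1 and 0.09 without control replicate 3. Acvrl1, the endothelial BMP9 receptor ALK1, stood at 91.8, 135 and 93.7 CPM with hairpin 1, against 80.98, 90.5 and 79.8 CPM in control (log2 fold change 0.35, SE 0.16, edgeR unadjusted p = 0.0491). Among 21 genes of the TGF beta and activin pathway 16 were positive, with a median of 0.07, but 10 were positive with a median of -0.04 without replicate 1 labelled hairpin 1, and the median was -0.0021 without control replicate 1. Inhbb, an activin subunit, stood at 26.3, 19.7 and 23.9 CPM with hairpin 1, against 14.1, 14.5 and 14.2 CPM in control (log2 fold change 0.70, SE 0.25, edgeR unadjusted p = 0.0171). Tgfbr3, the coreceptor betaglycan, stood at 7.22, 4.103 and 4.48 CPM with hairpin 1, against 3.22, 3.01 and 2.86 CPM in control (log2 fold change 0.80, SE 0.28, edgeR unadjusted p = 0.0168). Of 8 tested factors and markers of the epithelial-to-mesenchymal transition, 5 were positive, with a median of 0.23. Without replicate 1 labelled hairpin 1, 4 were positive, with a median of 0.05. Snai1 and Zeb1 lay entirely above the controls and Cdh2 below. Zeb2 overlapped, at a log2 fold change of -0.22. Zeb1, a repressor like Snai1, stood at 10.3, 3.56 and 4.86 CPM with hairpin 1, against 2.15, 3.53 and 3.15 CPM in control (log2 fold change 1.09, SE 0.41, edgeR unadjusted p = 0.025). Vim, vimentin, stood at 2279, 1873 and 1761 CPM with hairpin 1 and 1787, 2109 and 1628 CPM in control, and overlapped.

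Vessel genes had higher fitted values by less, and not in the list medians of replicate 2 labelled hairpin 1. As a median log2 ratio to the control mean, that library lay at -0.03 for endothelial genes and -0.07 for pericyte and smooth muscle genes. Control replicate 2 lay at 0.09 and 0.35. Of 22 endothelial genes 18 were positive, 5 lay entirely above and 1 below the controls, and the median was 0.40, or 0.22 without replicate 1 labelled hairpin 1. Tie1, an endothelial receptor kinase, stood at 24.8, 17.8 and 25.8 CPM with hairpin 1, against 12.7, 13.7 and 12.7 CPM in control (log2 fold change 0.80, SE 0.24, edgeR unadjusted p = 0.0066). Notch4, the Notch receptor of endothelium, stood at 31.5, 20.7 and 29.1 CPM with hairpin 1, against 13.5, 16.8 and 14.2 CPM in control (log2 fold change 0.87, SE 0.26, edgeR unadjusted p = 0.00707), and its ligand Dll4 at 15.3, 13.4 and 14.96 CPM with hairpin 1, against 10.4, 11.96 and 10.8 CPM in control (log2 fold change 0.40, SE 0.19, edgeR unadjusted p = 0.0564). All 3 separated the groups, and replicates 1 and 3 labelled hairpin 1 lay close to each other in them. Notch4 and Dll4 came from the Notch pathway list, where 10 of 14 members were positive and 3 lay entirely above the controls. That list's median was 0.23, and 0.08 without replicate 3 labelled hairpin 1. Its members Notch2, Maml1 and Rbpj overlapped, at log2 fold changes of -0.09, -0.04 and -0.0008. Cldn5, a tight junction protein, had a log2 fold change of 0.65 (SE 0.29; edgeR unadjusted p = 0.0491). Eng, endoglin, lay below the controls, at 426, 416 and 369 CPM with hairpin 1 and 429, 471 and 461 CPM in control, with exons that overlap Fpgs. The 5 endothelial markers, such as Pecam1 and Cdh5, summed to 173.1, 108.6 and 140.8 CPM with hairpin 1 and 108.6, 108.2 and 102.3 CPM in control. Pericyte and smooth muscle genes were positive in 12 of 13, with a median of 0.56, and of 0.16 without replicate 1. Their 5 markers summed to 197.0, 78.9 and 127.8 CPM with hairpin 1 and 67.3, 130.6 and 87.7 CPM in control. Basement membrane genes were positive in 11 of 15 and negative in 4, with a median of 0.24, and of 0.095 without replicate 3 labelled hairpin 1. Lamb1, a laminin chain, stood at 53.5, 49.9 and 61.1 CPM with hairpin 1, against 48.9, 32.3 and 27.8 CPM in control (log2 fold change 0.59, SE 0.22, edgeR unadjusted p = 0.0202). Of 18 vascular growth factors and receptors 14 were positive, with a median of 0.22. Without replicate 1 labelled hairpin 1, 7 of the 18 were positive, with a median of -0.02. Of them, Fgf7 stood at 2.43, 1.35 and 0.568 CPM with hairpin 1, against 0.418, 0.457 and 0.416 CPM in control (log2 fold change 1.74, SE 0.58, edgeR unadjusted p = 0.0128). Vegfa, the main vessel growth factor, overlapped, at 200.3, 139 and 142 CPM with hairpin 1 and 88.4, 166 and 96.02 CPM in control. The part of cell numbers in these values was not tested.

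Genes of the hypoxia response were positive in 18 of 19, with a median of 0.27, and of 0.25 without replicate 1 labelled hairpin 1. Car9, a carbonic anhydrase induced by HIF, stood at 296, 431 and 282 CPM with hairpin 1, against 277, 261 and 209 CPM in control (log2 fold change 0.43, SE 0.18, edgeR unadjusted p = 0.0362). Mxi1, a MAX-binding repressor, stood at 69.2, 85.6 and 75.3 CPM with hairpin 1, against 61.6, 65.5 and 50.9 CPM in control (log2 fold change 0.37, SE 0.13, edgeR unadjusted p = 0.0172). The groups did not overlap in either gene. Egln3, a prolyl hydroxylase that acts on HIF, stood at 20.6, 13.3 and 8.59 CPM with hairpin 1 and 9.13, 7.25 and 5.89 CPM in control. Glycolysis genes were positive in 19 of 22, with a median of 0.13, which was 0.07 and 0.03 without replicate 1 or 2 labelled hairpin 1. The enzyme gene Eno1, enolase, stood at 8961, 10302 and 8494 CPM with hairpin 1 and 9271, 8887 and 9059 CPM in control.

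Leukocyte and interferon medians moved widely with single libraries. Of 18 macrophage genes 15 were positive with a median of 0.29, but without replicate 1 labelled hairpin 1 the median was -0.31, with 3 of 18 positive. The T cell median was 0.37 and turned to -0.52 without it, that of chemokines and cytokines 0.44 and -0.56, and that of the interferon gamma response and MHC class II 0.18 and -0.48. The MHC class I presentation median was 0.20 with that library and -0.14 without it, and the immediate early median 0.10 and -0.58. The type I interferon median was -0.05 with that library and -0.43 without it, that of neutrophils and monocytes -0.25 and -1.35, and that of mast cells and basophils -0.08 and -0.20, and each of these 3 was positive without control replicate 2, at 0.23, 0.79 and 0.20. The dendritic cell median was 0.32 with replicate 1 labelled hairpin 1 and 0.0077 without it, that of B and plasma cells 0.05 and 0.03, and that of cytotoxic and NK cells 0.25 and -0.12. Leaving out 1 control at a time gave medians of 0.06 to 0.96 for macrophages, 0.16 to 0.93 for T cells and 0.26 to 1.10 for chemokines and cytokines, each highest without control replicate 2. No member of the macrophage, chemokine, interferon or immediate early lists separated the groups. C1qb, a complement protein of macrophages, stood at 104, 34.5 and 45.5 CPM with hairpin 1 and 44.8, 83.8 and 30.3 CPM in control. Cxcl9, an interferon-induced chemokine that draws T cells, stood at 80.6, 29.7 and 13.01 CPM with hairpin 1 and 18.6, 31.8 and 17.6 CPM in control. B2m, the shared subunit of class I MHC molecules, stood at 1381, 1094 and 749.6 CPM with hairpin 1 and 1022, 1284 and 854 CPM in control. In each of these 3, replicate 1 was the highest of its group. Pdcd1, which encodes PD-1 and is given as FBXO38's known substrate, stood at 3.49, 2.42 and 0.695 CPM with hairpin 1 and 0.597, 4.901 and 0.476 CPM in control, and Cd274, its ligand PD-L1, at 32.6, 30.9 and 16.7 CPM with hairpin 1 and 20.7, 29.3 and 10.9 CPM in control. Both overlapped. The 5 macrophage markers summed to 316.0, 110.6 and 140.6 CPM with hairpin 1 and 119.4, 271.4 and 99.6 CPM in control. The 5 T cell markers summed to at most 9.0 CPM with hairpin 1 and 9.87 CPM in control, and the 3 B cell markers to at most 1.36 CPM with hairpin 1 and 1.31 CPM in control. The neutrophil marker Ly6g had no counts in the 6 libraries.

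**Figure D5:**
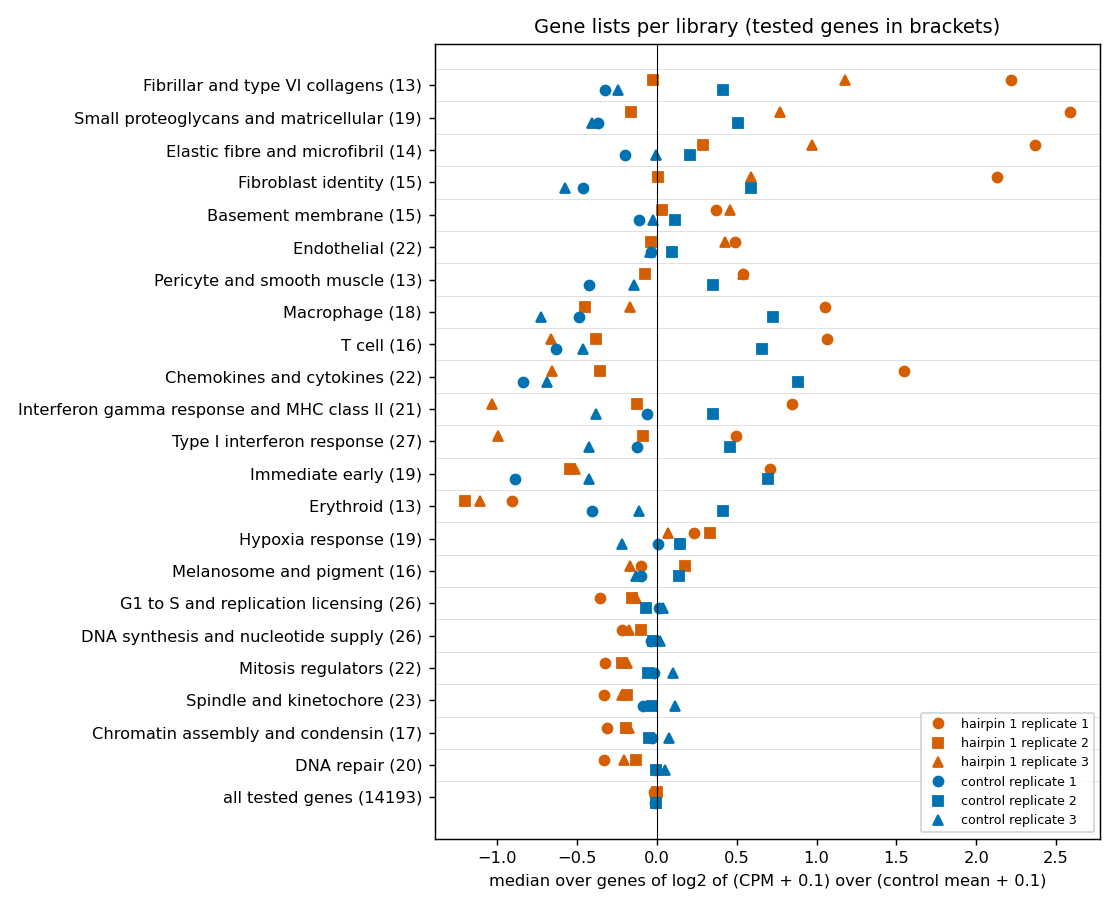
Median over the tested members of each list of log2 of (CPM + 0.1) over (control mean + 0.1), 1 point per library, with hairpin 1 above control in each list's band and the median of all tested genes at the foot. In the collagen list replicate 1 labelled hairpin 1 lies at 2.22, replicate 3 at 1.18 and replicate 2 at -0.02. In the 6 cell cycle lists the 3 libraries labelled hairpin 1 lie left of the 3 controls, with replicate 1 furthest left. For licensing they lie at -0.36, -0.16 and -0.13, and the lowest control at -0.07.

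Erythroid genes stood lower in the tumours labelled hairpin 1. Of 13 tested, 11 were negative and 7 lay entirely below the controls, with a median of -1.36, and of -1.28 without replicate 1 labelled hairpin 1. Hba-a1, alpha globin, stood at 691, 463 and 504 CPM with hairpin 1, against 1156, 2286 and 1329 CPM in control (log2 fold change -1.52, SE 1.39, edgeR unadjusted p = 0.309). Hbb-bs, beta globin, stood at 621, 457 and 457 CPM with hairpin 1, against 1122, 2179.8 and 972 CPM in control. Every library labelled hairpin 1 was below every control in both genes, and none of the 13 reached an unadjusted p under 0.05. The SE and p come from the fit of all 9 libraries, so their spread is not that of the 6 libraries alone. Hba-a1 stood at 174, 9503 and 216 CPM in replicates 1, 2 and 3 labelled hairpin 2. Tfrc, the transferrin receptor that dividing cells also use, overlapped, at 304, 563 and 402 CPM with hairpin 1 and 485, 404 and 495 CPM in control. Globin copies are near-identical, so their counts may be shared. The blood held in the tumours was not measured.

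Melanosome genes lay near the median of all genes. Of 16 melanosome genes 6 were positive, with a median of -0.02, and Dct, of melanin synthesis, stood at 6563, 7937 and 6662 CPM with hairpin 1 and 6608, 7569 and 7415 CPM in control. Mlph, which links melanosomes to myosin, stood at 345, 369 and 359.6 CPM with hairpin 1 and 470.0, 409 and 371 CPM in control, and was the melanosome gene that separated the groups. Regulators of the melanocyte lineage were positive in 8 of 10, with a median of 0.19, of 0.37 without replicate 1 labelled hairpin 1 and of 0.02 without control replicate 2. Of the 10, 1 lay entirely above the controls, against 4.09% of all tested genes. Without replicate 1 labelled hairpin 1, 4 lay above them, against 10.1% of all tested genes. Sox10, the lineage factor, overlapped, at 668, 1134 and 1067 CPM with hairpin 1 and 1119.7, 775 and 925 CPM in control. Ednrb, the endothelin receptor of melanocytes, stood at 8.703, 9.08 and 13.4 CPM with hairpin 1, against 7.34, 3.59 and 6.13 CPM in control (log2 fold change 0.87, SE 0.44, edgeR unadjusted p = 0.0808). Ribosome biogenesis genes were negative in 18 of 21, with a median of -0.13, and Nop56, a core snoRNP protein whose exons overlap small RNA genes and Idh3b, stood at 155, 122 and 144 CPM with hairpin 1, against 167, 181 and 183 CPM in control (log2 fold change -0.33, SE 0.12, edgeR unadjusted p = 0.0197). Of 52 cytosolic ribosomal protein genes 44 were positive, with a median of 0.11, and of 0.01 without replicate 1 labelled hairpin 1.

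Mitochondrial genome transcripts differed as much within the groups as between them. All 15 were positive, with a median of 0.42, which was -0.07 without replicate 1 labelled hairpin 1. The ribosomal RNA mt-Rnr2 stood at 2270.1, 619.8 and 62.7 CPM with hairpin 1 and 118, 227 and 118 CPM in control, and mt-Co1, a cytochrome oxidase subunit, at 35748, 22758 and 11204 CPM with hairpin 1 and 10887, 24587 and 15102 CPM in control. The groups overlapped in all 15. Their part in the other results was not tested.

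A direct comparison with hairpin 2 asked which values set hairpin 1 apart from the other hairpin. Fbxo38 stood at 35.1, 20.99 and 22.03 CPM with hairpin 1, against 20.96, 11.4 and 11.9 CPM with hairpin 2, a log2 fold change of 0.82 (SE 0.29; edgeR unadjusted p = 0.0171, adjusted p = 0.376). Over all 14193 genes edgeR called 0% (0 genes), limma-voom called 0 and DESeq2 called 89 (51 higher and 38 lower with hairpin 1). An unadjusted p under 0.05 was reached by 1655 genes (11.7%), of which 743 were higher (5.23%) and 912 lower (6.43%). Of the 134 cell cycle genes, 5 were higher and 15 lower at that level, with a median of -0.13. Of the 102 matrix and fibroblast genes, 6 were higher and 1 lower, with a median of 0.20. Snai1 had 1.88, 3.04 and 3.17 CPM with hairpin 2 and Id3 had 4.83, 10.6 and 11.03 CPM, and their log2 fold changes of hairpin 1 over hairpin 2 were 0.31 (edgeR unadjusted p = 0.467) and 0.27 (edgeR unadjusted p = 0.43). Cxcr4 had 6.97, 13.7 and 13.5 CPM with hairpin 2 and a log2 fold change of -0.19 (edgeR unadjusted p = 0.55). Rpl7a had 260.2, 231 and 226 CPM with hairpin 2 and a log2 fold change of -0.44 (edgeR unadjusted p = 0.00184, adjusted p = 0.375), and Slc16a3 had 372, 335 and 334 CPM with hairpin 2 and one of 0.51 (edgeR unadjusted p = 0.00104). The comparisons of each hairpin with control share the 3 control libraries.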

How the data were processed

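Per the labels' protocols, tumour RNA was taken up in TRIzol and libraries were run on a NovaSeq. The authors deposited raw counts per gene symbol, 1 column for each library. STAR 2.7.0d and Cufflinks are named in the submitters' processing notes, with human builds (GRCh38, hg38) for files of mouse symbols. The counter, annotation and strand setting are not stated in the sources used here, so overlapping genes and close copies cannot be told apart. The files list 54532 entries (54427 symbols), and repeated symbols were kept apart. Groups and replicate numbers came from the titles, and the labels give no batch. All 9 libraries were fitted in 3 groups with edgeR 4.0.16 (R 4.3.3): filterByExpr with a minimum count of 10 and a minimum total of 15, TMM scaling and a robust quasi-likelihood test, Benjamini-Hochberg adjusted over 14193 genes with a threshold of 0.05. SE is the log2 fold change over the root of the test's F. CPM use TMM-scaled library sizes, and a gene separates the groups where all 3 values of one group lie beyond all 3 of the other. With 3 against 3, the smallest exact p is 0.1. Within groups, the chi-square of library pairs over genes was at least 20.7 per degree of freedom, so none was counted as a repeat. Simulated counts were used to test the edgeR fit.

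The members and gene lists were chosen with earlier results of these data known. Named genes are the F-box genes of the labels, the 12 higher and 12 lower of smallest p with a mean CPM of at least 1, the 6 and 6 of largest change that separate the groups at an unadjusted p under 0.05, and in each list the 3 of highest mean CPM and the 3 of smallest p. Gene positions and overlaps are from GENCODE M21 (GRCm38), which holds 316 of the 318 genes selected, 96 of them with exons that overlap another gene. The overlaps not given beside a value are those of Ppp1r14c, Hmgcs1, Sfrp2, Cdkn1a, Cul1, mt-Co1, Loxl2, Rcn3, Suv39h2, Zranb3, Engase, Tedc2, E2f8, Top2a, Foxm1, Kif20a, Prc1, Col3a1, Lox, Eln, Thbs1, Pdgfra, Cd34, Zeb1, Tgfbr3, Acvrl1, Dll4, Ccbe1, Car9, Mxi1, Ccnd1 and Cd274. Not every gene that the rule names is reported here. Promoters are from RefSeq (GRCm38.p6), with those on chr18 left out of every search and share. Alternatives were other scalings and filters, DESeq2 1.42.0, limma-voom 3.58.1, only the groups compared, a replicate block and each library left out. Leave-one-out counts for joined lists and the block with only 2 groups were added after the data were seen.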

Additional observations from a re-analysis of the deposited data

How the results depend on the processing

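No gene passed the adjusted threshold for hairpin 1 against control under any alternative. Genes at an unadjusted p under 0.05 numbered 681 with no filter on low counts, and 206 to 578 with a library left out. Deviations from the group means gave correlations of -0.41, -0.26 and 0.14 between same-numbered libraries. Whether libraries of the same number were handled together cannot be told from these values, and the labels do not say. With the replicate block the number was 287, and with the block and only the 2 groups compared it was 232. For hairpin 1 against hairpin 2, 2 genes passed with no filter and 89 by DESeq2, and 0 to 1 with a library left out. The cause of these differences was not tested. The Fbxo38 log2 fold change ran from -0.39 to 0.026 with a library left out, above 0 without replicate 2 (0.026) or 3 (0.0052) labelled hairpin 1, and was -0.17 with the replicate block. The 36 genes of smallest p or largest change kept their direction in all 319 values of the settings run for them. These settings were DESeq2's size factors, the replicate block, only the groups compared and each library left out. All 36 were picked from these same data and separate the groups, so leaving out a library could hardly turn their direction. The agreement is therefore no further support. Of 504 list medians under the same settings, 24 were counted as moved, in 12 of 56 lists. A median counted as moved if it shifted by more than the SD of that list's level over the 3 libraries labelled hairpin 1. Where replicate 1 stands apart it widens that SD, so large shifts can go uncounted. The macrophage median, 0.29 with that library and -0.31 without it, was not counted as moved. With 3 libraries a group and 14.9 to 16.9 counts per CPM, differences of low genes such as Cthrc1 and Fap rest on few counts.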

Other observations

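Genes of the endoplasmic reticulum and integrated stress response were positive in 19 of 21, with a median log2 fold change of hairpin 1 over control of 0.14, which was 0.0447 without replicate 3 labelled hairpin 1 and 0.0748 without control replicate 3. Crebrf, a regulator of the unfolded protein response, stood at 25.6, 34.6 and 24.1 CPM with hairpin 1, against 20.8, 21.6 and 20.6 CPM in control (log2 fold change 0.42, SE 0.17, edgeR unadjusted p = 0.0313), and the groups did not overlap. Its log2 fold change of hairpin 1 over hairpin 2 was -0.60 (edgeR unadjusted p = 0.00453). Atf6, a sensor of that response, stood at 98.6, 125 and 115 CPM with hairpin 1 and 91.9, 100.3 and 85.8 CPM in control. Hspa5, the chaperone BiP, overlapped, at 1066, 1300.1 and 1509.7 CPM with hairpin 1 and 1270.2, 1312 and 1182 CPM in control.

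Among Wnt pathway genes Sfrp2, a secreted inhibitor, stood at 5.68, 0 and 1.14 CPM with hairpin 1 and had no counts in the 3 controls. Cholesterol and fatty acid synthesis genes were negative in 19 of 26, with a median of -0.12, which was 0.01 without replicate 1 labelled hairpin 1 and -0.22 without control replicate 2. Hmgcs1, of the first steps of cholesterol synthesis, stood at 104, 135 and 117 CPM with hairpin 1 and 129.8, 144 and 192 CPM in control. Lysosome and autophagy genes were positive in 19 of 22, with a median of 0.11, and in 14 of 22 with a median of 0.0569 without replicate 1 labelled hairpin 1. That median was 0.051 without control replicate 3. Schwann and neural crest genes were positive in 8 of 9, with a median of 0.33, and in 6 of 9 with a median of 0.19 without replicate 1 labelled hairpin 1. Cdh19, a cadherin of that lineage, stood at 36.1, 40.6 and 34.9 CPM with hairpin 1, against 29.9, 32.7 and 28.97 CPM in control (log2 fold change 0.28, SE 0.18, edgeR unadjusted p = 0.136).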
